A study of Rattus norvegicus with 24 samples.

Results

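The inhibitory interneuron genes described here are 10 genes that mark or serve the GABA-releasing neurons of the cerebral cortex: Gad1, Gad2, Slc32a1, Pvalb, Sst, Vip, Npy, Cck, Lhx6 and Reln. They were chosen by name among the 32883 reference genes of the deposited tables, each name matched 1 reference gene, and all 10 were among the 15644 genes with a mean level of at least 1 that were tested. RNA-Seq was run on the frontal cortex of 24 adult male Sprague-Dawley rats from an inhalation study of tungsten particles, and the samples date from 24 h after exposure. The Control group was labelled with an aerosol concentration of 0 mg/m3, the Low group with 5 mg/m3 and the High group with 80 mg/m3, with 8 libraries in each group, named by their library numbers (Control 49 to 56, Low 57 to 64, High 65 to 72). Stranded libraries were made from polyadenylated RNA, and the labels name no sorting of cells and no genetic change in any group. They give frontal cortex as the tissue, although their extraction note speaks of cell lines where the study's methods name tissue, and markers of neurons, glia and blood were all present. The labels do not tie a library to a cage or a sequencing run, so the p-values measure the spread between these 24 libraries.

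GABA, the main inhibitory transmitter of the cortex, is made from glutamate by decarboxylases encoded by Gad1 and Gad2 and is loaded into synaptic vesicles by the transporter encoded by Slc32a1. Cortical interneurons are usually sorted into classes by a calcium-binding protein (parvalbumin, Pvalb) or a peptide (somatostatin, Sst; vasoactive intestinal peptide, Vip; neuropeptide Y, Npy; cholecystokinin, Cck). Lhx6 encodes a transcription factor of interneurons born in the medial ganglionic eminence, and Reln encodes reelin, a large secreted glycoprotein. Several of these genes are not exclusive to interneurons: medium spiny neurons of the striatum also make GABA, and pyramidal neurons of the cortex also express Cck.

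Expression is given as scaled coverage. Coverage is the mean read depth per base of a gene as deposited, and it was divided by its sum over all reference genes of the library and multiplied by 1000000. Since it is a depth per base, levels of genes of different length can be set side by side, with a limit for Gad1 that is given below. How evenly the reads cover a long gene such as Reln was not tested. Read counts are not in the tables used here, so no counting error is given. Differences between groups are log2 fold changes of scaled coverage plus 1, which shrinks fold changes at low levels such as those of Lhx6, and were tested with limma across all 15644 genes in 1 fit of the 3 groups, with Benjamini-Hochberg adjusted p-values, two-sided, and a threshold of 0.05. In bulk tissue, fewer cells of a type and less RNA per cell cannot be told apart.

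Single libraries differed in markers of other cells, and the Low tables differed as a group. The summed level of 8 striatal medium spiny neuron markers, among them Drd1, Adora2a and Ppp1r1b, ran from 194 to 1202 over the 24 libraries and was above 700 in Control 55 and High 65, 66 and 67. The summed level of 9 glutamatergic neuron markers ran from 1329 to 4498, and its 3 lowest values were in High 67, High 66 and Control 55. Control 49 and Low 57 had the 2 lowest levels of Lhx6 and, High 67 aside, also of Reln and of Camk2a, a kinase subunit of excitatory neurons. Libraries 56 to 62 differed from the other 17 in the coverage of the minus strand of the mitochondrial genome, which scaled to 5449 to 8102 in these 7 libraries and to 84.9 to 155 elsewhere. Of these 7, 6 are Low libraries. Beside the reference genes, the Control and High tables hold loci that were assembled from the reads, 159573 in Control 56 and 46334 to 66427 in the other 15, whereas the 8 Low tables hold 0. The Low tables also list 12813 to 14387 reference genes at 0, against 11323 to 12400 in the Control and High tables. The Low exposure and the way the Low tables were made cannot be told apart in any comparison with Low. The part of these differences in the results below was not tested beyond the values given beside each result.

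The tables place the 10 genes on 7 chromosomes, and several lie on the same chromosome without being neighbours. The sequence just before the start of a gene is shown for 6 of them, because their levels moved together or apart across libraries, as described further on: Gad2 and Slc32a1, Pvalb and Vip, and Sst and Npy. Each line gives the 100 bases before the gene start in RefSeq's annotation of the GRCr8 build, 5′ to 3′ on the gene's own strand, and capitals mark matches to TGACG (a partial cyclic AMP response element) or TATAAA on either strand.
Gad2, chr17:89671618-89671717, plus strand: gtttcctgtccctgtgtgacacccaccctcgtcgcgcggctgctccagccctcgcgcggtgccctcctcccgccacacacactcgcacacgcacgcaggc
Slc32a1, chr3:167687145-167687244, plus strand: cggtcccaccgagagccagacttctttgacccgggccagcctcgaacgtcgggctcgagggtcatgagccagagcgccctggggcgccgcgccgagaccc
Pvalb, chr7:111666290-111666389, minus strand: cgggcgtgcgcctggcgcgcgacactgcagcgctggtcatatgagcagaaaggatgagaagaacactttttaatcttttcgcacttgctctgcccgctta
Vip, chr1:44470380-44470479, plus strand: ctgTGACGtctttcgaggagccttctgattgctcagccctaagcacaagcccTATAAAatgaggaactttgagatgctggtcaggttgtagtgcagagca
Sst, chr11:90461446-90461545, plus strand: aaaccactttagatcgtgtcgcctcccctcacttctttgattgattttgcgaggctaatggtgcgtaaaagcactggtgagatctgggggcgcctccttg
Npy, chr4:80212011-80212110, plus strand: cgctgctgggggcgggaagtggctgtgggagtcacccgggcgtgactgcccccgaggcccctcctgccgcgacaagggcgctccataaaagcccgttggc

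The bases before Gad2, Slc32a1 and Npy held 71%, 72% and 72% G or C, against 55% before Pvalb, 51% before Sst and 49% before Vip. A window of 250 bases before and 50 after the start was held for 9 of the 10 genes, all but Cck, and 3 motifs were searched on both strands in it. The full 8-letter element TGACGTCA, which contains the 5-letter TGACG on both strands, was in 1 of the 9 windows, that of Sst, and in 1.83% of all 33469 windows. It began at base 3 after the annotated start:
Sst, chr11:90461540-90461563, plus strand: tccttggcTGACGTCAgagagaga
The 5-letter TGACG was in the windows of Slc32a1, Pvalb, Sst and Vip and in 21.2% of all windows. TATAAA was in the windows of Gad1 and Vip and in 14.2% of all windows, and the nearest match in Vip began 48 bases before the start. These letter matches are descriptions of the sequence only.

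In unexposed cortex the 10 genes spanned a wide range of levels. Cck was the most abundant, with 443 ± 84.0 scaled coverage (SD, n = 8 Control libraries), above 98.7% of tested genes. Sst followed with 304 ± 41.2 and Pvalb with 170 ± 52.2. Gad2 (101 ± 35.2), Gad1 (72.2 ± 14.0), Slc32a1 (70.7 ± 17.3) and Npy (60.0 ± 7.54) formed a middle range, with Vip (25.0 ± 4.24) and Reln (15.9 ± 4.18) lower. Lhx6, the transcription factor, was lowest with 5.87 ± 2.68, above 26.7% of tested genes. The place of Npy in this order is uncertain, because a neighbouring gene, LOC100912228, has nearly the same level in each library and may share its reads. Npy and that gene summed to 118 ± 14.3 (SD, n = 8), above Slc32a1 and Gad1 in 8 of 8 Control libraries and above Gad2 in 5.

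Neighbours in that order were compared within the 8 Control libraries with exact sign-flip permutation tests of the log2 ratio, two-sided, adjusted over 9 pairs, where the smallest p that 8 libraries allow is 0.0078. The step from Cck to Sst held in 8 of 8 Control libraries (adjusted exact permutation p = 0.0141), as did the steps from Sst to Pvalb, Npy to Vip, Vip to Reln and Reln to Lhx6 at the same adjusted p. Gad2 was above Gad1 in 7 of 8 (adjusted exact permutation p = 0.0234), a step that is given for coverage only. Gad1 coverage per unit of its FPKM, divided by the same quantity for Sst, ran from 0.461 to 0.923 in Control (median 0.510). Whether the step holds with FPKM was not tested. The steps from Pvalb to Gad2 (7 of 8, adjusted exact permutation p = 0.0703), Gad1 to Slc32a1 (4 of 8, 0.531) and Slc32a1 to Npy alone (5 of 8, 0.141) did not exceed the spread between libraries.

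**Figure D1:**
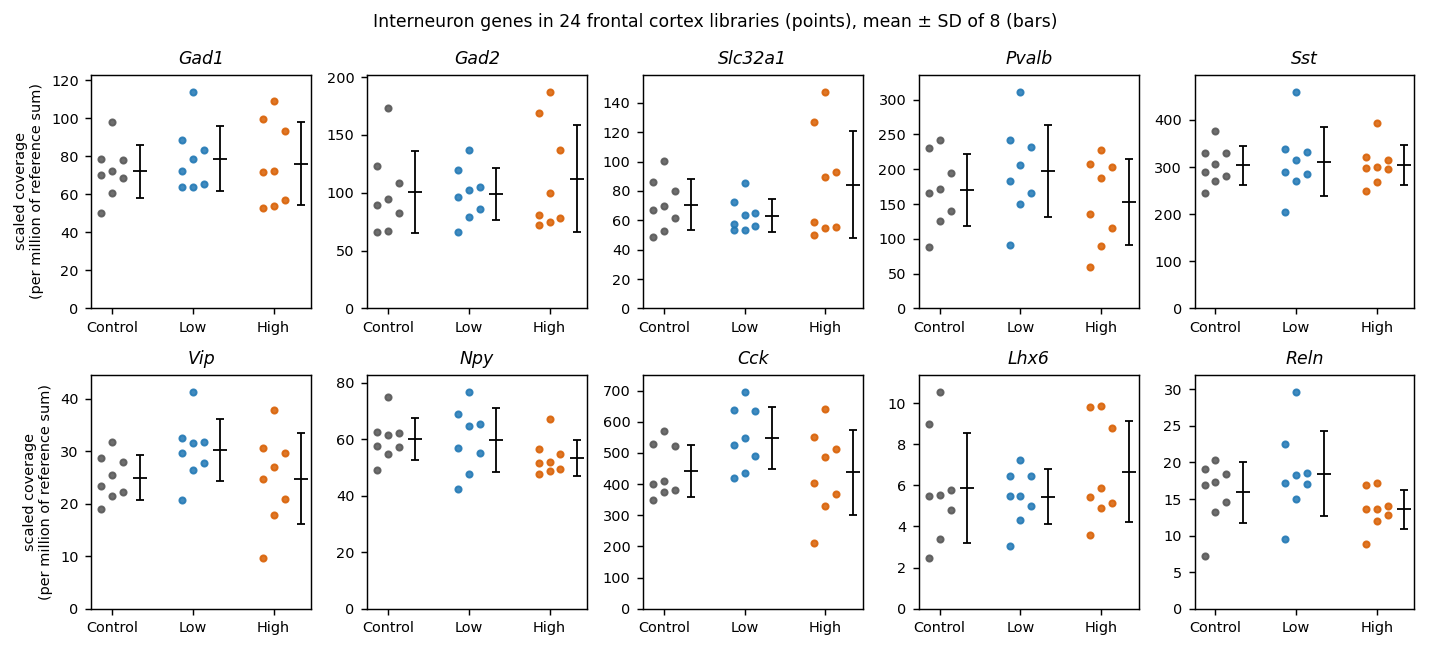
Scaled coverage (vertical axis, scaled to a reference sum of 1000000, axis from 0) of the 10 interneuron genes in Control, Low and High libraries, 1 point a library, with bars for the mean ± SD of 8. The groups overlap for all 10 genes, with no share over all tested genes given. High 67 is the highest High library for Gad2 (187) and the lowest for Pvalb (60.2).

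No interneuron gene passed the threshold in any of the 3 comparisons. In Low against Control 0 of 10 were called, while 6.11% of all tested genes were. In High against Control 0 of 10 were called, as were 0% of all tested genes, where the smallest adjusted p of the 10 genes was 0.999. In Low against High 0 of 10 were called, while 11.7% of all tested genes were. At an unadjusted limma p under 0.05, the counts were 0, 0 and 1 of the 10 genes, beside 18.4%, 2.11% and 29.1% of all tested genes. An exact Wilcoxon rank-sum test called 0 of the 10 in each comparison after adjustment over all 15644 genes. Its share over all tested genes is not given here, so this 0 stands without a background. The FPKM column as deposited called 8 of the 10 in Low against Control, where it called 89.7% of all tested genes. The median log2 fold change of the 10 genes was 0.07 in Low against Control, -0.03 in High against Control and 0.11 in Low against High, beside 0.06, -0.03 and 0.09 over all tested genes. The groups overlapped for every one of the 10 genes in all 3 comparisons, and the share over all tested genes is not given here.

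The intervals show what size of change these libraries could have missed. For Low against Control the 95% interval of the fold was narrowest for Npy (0.849 to 1.14) and Sst (0.853 to 1.20) and widest for Pvalb (0.783 to 1.69). For High against Control it ran from 0.771 to 1.04 for Npy and from 0.589 to 1.27 for Pvalb.

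**Figure D2:**
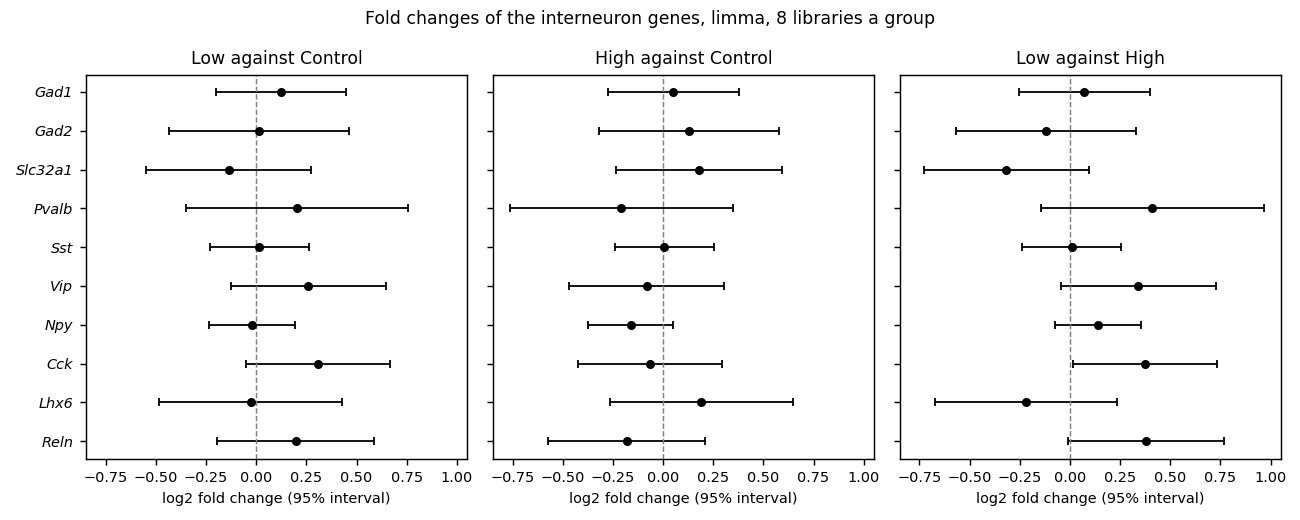
Log2 fold change (horizontal axis) of each interneuron gene with its 95% interval from limma, 8 libraries a group, in 3 panels for Low against Control, High against Control and Low against High. The interval crosses 0 for every gene in the first 2 panels and misses 0 in the third only for Cck (0.37), whose adjusted p was 0.154.

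Gad1 encodes the decarboxylase that makes most of the brain's GABA, and Gad2 the form that sits near synaptic vesicles. Gad1 (ENSRNOG00000000007, chromosome 3, 56861396 to 56902157, plus strand, positions as in the tables) ran from 50.5 to 98.2 in Control (median 71.1), from 63.9 to 114 in Low (median 75.4) and from 53.0 to 109 in High (median 71.9). The highest libraries were Control 55, Low 59 and High 67. The log2 fold change was 0.12 ± 0.16 (SE) in Low and 0.05 ± 0.16 in High against Control, and 0.07 ± 0.16 in Low against High. None exceeded the spread between libraries.

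Gad2 (ENSRNOG00000018200, chromosome 17, 89171250 to 89238040, plus strand) ran from 65.8 to 173 in Control (median 91.9), from 66.1 to 137 in Low (median 99.3) and from 72.4 to 187 in High (median 90.0). The 3 highest libraries, High 67 (187), Control 55 (173) and High 66 (169), were 3 of the 4 libraries above 700 in summed striatal markers. The fourth, High 65, had the highest striatal sum and a Gad2 level of 99.5. The log2 fold changes against Control were 0.01 ± 0.22 (SE) in Low and 0.13 ± 0.22 in High.

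Slc32a1, the vesicular GABA transporter gene (ENSRNOG00000015393, chromosome 3, 155103150 to 155107817, plus strand), ran from 48.4 to 100.1 in Control (median 68.3), from 53.2 to 85.2 in Low (median 60.4) and from 50.0 to 147 in High (median 74.2). High 67 (147), High 66 (127) and Control 55 (100.1) were again highest, followed by High 65 (92.7). Its log2 fold change was -0.14 ± 0.20 (SE) in Low against Control, 0.18 ± 0.20 in High against Control and -0.32 ± 0.20 in Low against High (limma adjusted p = 0.290). Without the 4 libraries above 700 in striatal markers, 11 of the 30 fold changes of the 10 genes changed sign, the largest of them that of Slc32a1 in Low against High.

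Pvalb, the calcium-binding protein of fast-spiking basket and chandelier cells (ENSRNOG00000006471, chromosome 7, 119429019 to 119441487, minus strand), spanned a 5.17-fold range over the 24 libraries, the widest of the 10 genes. It ran from 88.6 to 242 in Control (median 169), from 91.3 to 311 in Low (median 195) and from 60.2 to 228 in High (median 161). High 67 (60.2), Control 55 (88.6), High 66 (89.8) and Low 61 (91.3) were lowest and Low 57 (311) was highest. The log2 fold change was 0.20 ± 0.27 (SE) in Low and -0.21 ± 0.27 in High against Control, and 0.41 ± 0.27 in Low against High (limma adjusted p = 0.311).

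Sst encodes the peptide of dendrite-targeting interneurons and is a very short gene (ENSRNOG00000001837, chromosome 11, 80358211 to 80359444, plus strand, 1234 bases). It ran from 246 to 376 in Control (median 298), from 205 to 459 in Low (median 302) and from 250 to 393 in High (median 299). Low 61 was lowest and Low 57 highest of all libraries. The log2 fold changes were 0.02 ± 0.12 (SE) in Low and 0.01 ± 0.12 in High against Control.

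Vip, the peptide of interneurons that mostly target other interneurons (ENSRNOG00000018808, chromosome 1, 42169501 to 42177582, plus strand), ran from 19.0 to 31.8 in Control (median 24.4), from 20.8 to 41.2 in Low (median 30.6) and from 9.74 to 37.7 in High (median 25.8). High 67 was lowest of all 24 libraries and Low 57 highest, and 7 of 8 Low libraries lay above the Control median. The log2 fold change was 0.26 ± 0.19 (SE) in Low against Control (limma adjusted p = 0.476) and 0.34 ± 0.19 in Low against High (limma adjusted p = 0.224).

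Npy, a peptide found in part of the somatostatin cells and in neurogliaform cells (ENSRNOG00000046449, chromosome 4, 79573998 to 79581208, plus strand), ran from 48.9 to 74.9 in Control (median 59.7), from 42.2 to 76.7 in Low (median 60.7) and from 47.7 to 67.3 in High (median 51.6). Of the 8 High libraries, 7 lay below the Control median, and High 65 (67.3) lay above it. The log2 fold change in High against Control was -0.16 ± 0.10 (SE, limma adjusted p = 0.999). A neighbouring gene on the same strand, LOC100912228, had 0.938 to 0.997 times the level of Npy in each library, so the level of Npy is uncertain if reads were shared between both.

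Cck had the largest fold change of the 10 genes in Low against Control (ENSRNOG00000019321, chromosome 8, 130120523 to 130127392, minus strand). It ran from 350.5 to 571 in Control (median 406), from 419 to 695 in Low (median 535) and from 211 to 640.2 in High (median 445). All 8 Low libraries lay above the Control median, and the groups overlapped. The fold was 1.24 in Low against Control (95% interval 0.965 to 1.59, limma adjusted p = 0.351) and 1.29 in Low against High (1.01 to 1.66, limma adjusted p = 0.154). With libraries 56 to 62 as a covariate the log2 fold changes of Cck were 0.37 ± 0.22 (SE) and 0.44 ± 0.24, and 0 of the 10 genes passed in either comparison, beside 2.31% and 2.26% of all tested genes.

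Lhx6 (ENSRNOG00000005996, chromosome 3, 15411939 to 15433252, minus strand) ran from 2.46 to 10.5 in Control (median 5.50), from 3.05 to 7.24 in Low (median 5.50) and from 3.57 to 9.85 in High (median 5.65). Control 49 was lowest and Control 56 highest, so that the Control group alone spanned a 4.28-fold range. The log2 fold changes against Control were -0.03 ± 0.22 (SE) in Low and 0.19 ± 0.22 in High.

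Reln (ENSRNOG00000021441, chromosome 4, 9347528 to 9773670, plus strand) ran from 7.27 to 20.3 in Control (median 17.1), from 9.47 to 29.6 in Low (median 17.8) and from 8.79 to 17.2 in High (median 13.7). Of the 8 Low libraries, 7 lay above the High median, and Low 57 lay below it. The log2 fold change was 0.20 ± 0.19 (SE) in Low against Control, -0.18 ± 0.19 in High against Control and 0.38 ± 0.19 in Low against High (limma adjusted p = 0.182). Without Control 49 and Low 57, an alternative chosen after their low Reln levels were seen, Reln passed in Low against High (limma adjusted p = 0.0075), and was then 1 of 10 interneuron genes called beside 28.8% of all tested genes.

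Ratios of 2 interneuron genes within a library do not depend on the scaling of that library. For 5 ratios, Gad1/Gad2, Slc32a1/Gad1, Pvalb/Sst, Npy/Sst and Cck/Vip, the mean log2 ratio was compared between groups with exact permutation tests over all 12870 splits of 8 against 8, two-sided, adjusted over 15 tests. Of the 15 tests, 2 passed.

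The Npy/Sst ratio ran from 0.186 to 0.216 in Control (median 0.197), from 0.151 to 0.269 in Low (median 0.194) and from 0.165 to 0.196 in High (median 0.174). Of the 8 High libraries, 7 lay below every Control library, and High 71 was the exception. The mean log2 ratio was -2.51 ± 0.07 (SD) in High and -2.34 ± 0.08 in Control, a difference of -0.17 (adjusted exact permutation p = 0.0117). It passed without each Control or High library in turn (adjusted exact permutation p from 0.00233 to 0.0233), and Low libraries have no part in this test. Leaving out libraries 56 to 62 removes only Control 56 here and is among those repeats (difference -0.18, adjusted exact permutation p = 0.0163). The ratio also passed with Npy summed with LOC100912228 (difference -0.17, adjusted exact permutation p = 0.0186). With medians in place of means the call was lost (difference -0.19, adjusted exact permutation p = 0.0513). Without the 4 libraries above 700 in striatal markers the difference was -0.17 and the adjusted exact permutation p was 0.114. In Low the ratio spread on both sides of the Control range, with 3 libraries below it and 2 above it.

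The Slc32a1/Gad1 ratio ran from 0.769 to 1.14 in Control (median 0.989), from 0.634 to 0.959 in Low (median 0.823) and from 0.823 to 1.35 in High (median 0.999). Low 59 was lowest and High 67 highest, and 4 of the 8 Low libraries lay below every High library. The mean log2 ratio was -0.31 ± 0.18 (SD) in Low and 0.09 ± 0.26 in High, a difference of -0.39 (adjusted exact permutation p = 0.0221). Against Control, the Low group differed by -0.26 (adjusted exact permutation p = 0.0614). The call in Low against High was lost without Low 59, Low 62 or Low 63 (highest adjusted exact permutation p = 0.0548), and without the 4 libraries above 700 in striatal markers (difference -0.22, adjusted exact permutation p = 0.190). It was also lost with medians in place of means (difference -0.28, adjusted exact permutation p = 0.0513). Outside libraries 56 to 62, where 2 Low and 8 High libraries remain, the difference was -0.43 (adjusted exact permutation p = 0.417, with a smallest unadjusted p of 0.0222 over the 45 splits). The coverage of Gad1 per unit of its FPKM, divided by the same quantity for Sst, is a measure of how both columns were made that does not depend on library depth. It ran from 0.457 to 0.468 in Low, from 0.473 to 0.521 in High and from 0.461 to 0.523 in 5 Control libraries, and was 0.923, 0.893 and 0.679 in Control 51, 54 and 55. The part of these differences in the ratio was not tested.

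The other 3 ratios did not pass. The median Cck/Vip ratio was 18.6 for Control, 17.9 for Low and 18.0 for High, and its 3 tests had adjusted exact permutation p-values of 0.849. The Pvalb/Sst ratio ran from 0.204 in High 67 to 0.898 in Low 63.

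**Figure D3:**
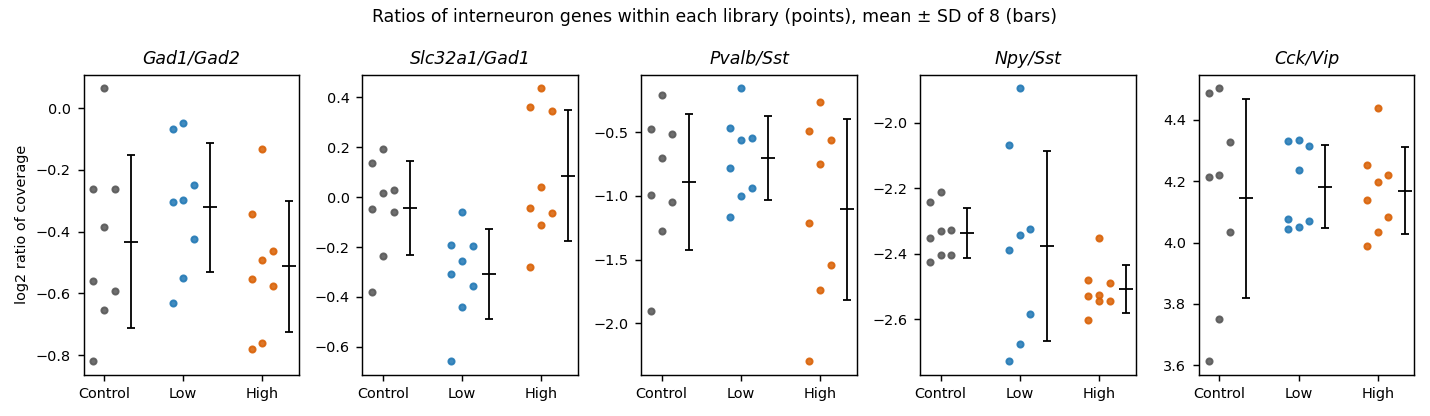
Log2 ratio of the coverage of 2 interneuron genes within each library (vertical axis) by group, 1 point a library, with bars for the mean ± SD of 8, for 5 ratios. The Npy/Sst points of High (mean -2.51) lie below those of Control (mean -2.34) except for 1 library, and the Slc32a1/Gad1 points of Low (mean -0.31) lie mostly below those of High (mean 0.09).

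Within the groups, the interneuron genes did not vary independently from library to library. Deviations from the group mean of the log2 level were correlated over the 24 libraries for all 45 pairs, with 100000 permutations within groups and adjustment over the 45 pairs. Of these, 17 passed with Pearson's r, 10 positive and 7 negative, and 14 of the 17 also passed with Spearman's rho. With another scaling of the libraries (median of ratios) 18 pairs passed, 14 of them among the 17 and with the same sign. The pairs fell into 3 groups that share libraries, scaling and tissue.

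The GABA synthesis and transport genes moved together, and Lhx6 passed with each of them. Gad2 and Slc32a1 had r = 0.87 and rho = 0.80 (adjusted permutation p = 0.00015). Without Control 55 and High 67, the 2 libraries farthest from the Gad2 median, r was 0.82, and it was 0.89 within libraries 56 to 62 and 0.87 within the other 17. Gad2 and Lhx6 had r = 0.80 and rho = 0.81 (adjusted permutation p = 0.00027), r = 0.76 without the same 2 libraries, and 0.78 and 0.82 within the 2 sets of libraries. With median-of-ratios scaling Gad2 and Lhx6 still passed (r = 0.73), whereas Lhx6 with Gad1 (r = 0.49, adjusted permutation p = 0.0526) and with Slc32a1 (r = 0.48, adjusted permutation p = 0.0618) did not.

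Pvalb, Vip and Cck moved together as well. Vip and Cck had r = 0.85 and rho = 0.70 (adjusted permutation p = 0.00045). Without High 67 and High 68 r was 0.68, and it was 0.92 within libraries 56 to 62 and 0.83 within the other 17. Pvalb and Vip had r = 0.80 and rho = 0.73 (adjusted permutation p = 0.00027), with r = 0.67 without Low 61 and High 67, and 0.94 and 0.77 within the sets. Pvalb and Cck (r = 0.58, rho = 0.44, adjusted permutation p = 0.0228) fell to r = 0.33 without Low 61 and High 67, so that this relation rests on those libraries. Within libraries 56 to 62 it was 0.74 and within the other 17 it was 0.55.

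Sst and Npy formed a pair of their own, with r = 0.71 and rho = 0.76 (adjusted permutation p = 0.0028). Without Low 57 and Low 61 r was 0.73, and it was 0.56 within libraries 56 to 62 and 0.87 within the other 17. Neither Sst nor Npy passed with any of the other 8 genes, and Reln passed with none of the 9.

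The 7 negative pairs all joined a GABA synthesis or transport gene with Pvalb, Vip or Cck. The strongest was Slc32a1 with Vip (r = -0.74, rho = -0.69, adjusted permutation p = 0.00186), with r = -0.59 without High 66 and High 67, -0.22 within libraries 56 to 62 and -0.82 within the other 17. Gad2 with Pvalb had r = -0.69 and rho = -0.65 (adjusted permutation p = 0.0028), with r = -0.53 without Control 55 and High 67, and -0.45 and -0.75 within the sets. Without the 4 libraries above 700 in striatal markers, leaving 20, the Slc32a1 and Vip pair had r = -0.31 and the Gad2 and Pvalb pair r = -0.37. The other negative pairs had r from -0.28 (Gad2 and Cck) to -0.06 (Slc32a1 and Pvalb) in these 20 libraries. In the same 20 libraries Gad2 and Slc32a1 had r = 0.77, Sst and Npy 0.67, Vip and Cck 0.61 and Pvalb and Vip 0.59. Pvalb and Cck had only 0.18, and the remaining positive pairs, all among Gad1, Gad2, Slc32a1 and Lhx6, had 0.48 to 0.81.

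**Figure D4:**
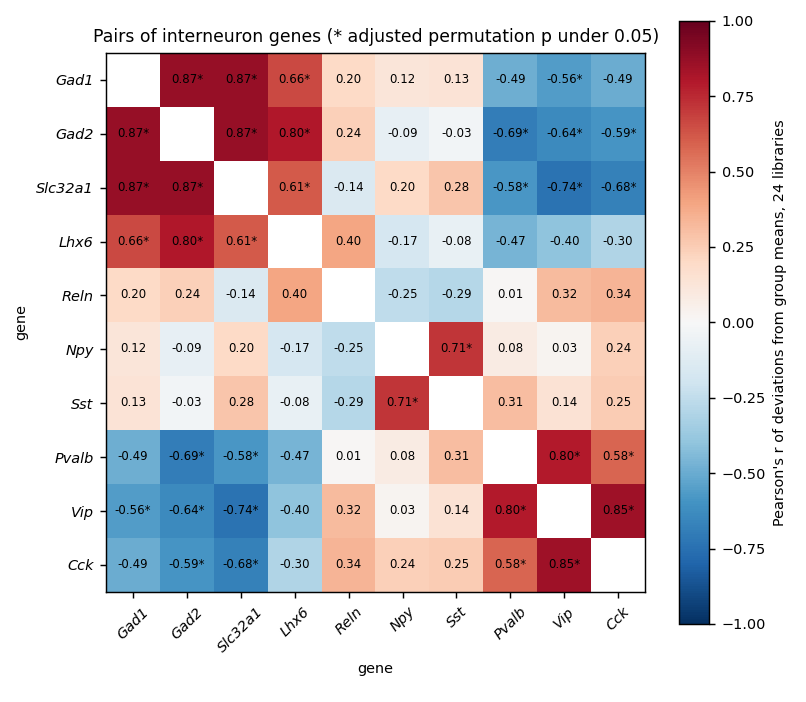
Pearson's r of deviations from group means over 24 libraries for the 45 pairs of interneuron genes, from -1 (blue) to 1 (red), with a star where the adjusted permutation p was under 0.05. Gad1, Gad2, Slc32a1 and Lhx6 form a red block and Pvalb, Vip and Cck another, with blue between both blocks, while Sst and Npy carry a star only with each other (0.71).

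Gad1, Gad2, Slc32a1, Pvalb, Vip and Cck also varied with markers of other neurons, each passing with both the striatal and the glutamatergic sum. Gad1, Gad2 and Slc32a1 rose with the striatal sum (r = 0.60 to 0.74) and fell with the glutamatergic sum (r = -0.75 to -0.55). Pvalb, Vip and Cck fell with the striatal sum (r = -0.76 to -0.69) and rose with the glutamatergic sum (r = 0.84 to 0.92). Within libraries 56 to 62 the r of Gad1 was 0.02 with the striatal and 0.14 with the glutamatergic sum. Lhx6 passed with neither sum (r = 0.32, adjusted permutation p = 0.209, and r = -0.40, adjusted permutation p = 0.0980). With median-of-ratios scaling Lhx6 passed with the glutamatergic sum (r = -0.58, adjusted permutation p = 0.00592). Over 30 relations of the 10 genes with the striatal sum, the glutamatergic sum and Camk2a, tested as above, Slc32a1 rose with the striatal sum (r = 0.74, rho = 0.80, adjusted permutation p = 0.0028, and r = 0.77 without High 65 and High 68). Within libraries 56 to 62 that r was 0.27 and within the other 17 it was 0.79. Vip rose with the glutamatergic sum (r = 0.92, rho = 0.82, adjusted permutation p = 0.0001, and r = 0.83 without High 66 and High 67, with 0.98 and 0.92 within the sets), and so did Pvalb (r = 0.84, rho = 0.76, adjusted permutation p = 0.0001, r = 0.80 without the same 2 libraries, 0.94 and 0.85 within the sets).

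Reln moved with Camk2a (r = 0.84, rho = 0.66, adjusted permutation p = 0.00045), with r = 0.62 without Control 49 and Low 57, and 0.82 and 0.89 within the sets. Sst and Npy passed with neither marker sum, but both fell as Camk2a rose (r = -0.51 for each, rho = -0.41 and -0.46, adjusted permutation p = 0.0224 for each r and 0.0783 and 0.0425 for rho). Without Control 49 and Low 57 these r were -0.14 and -0.20, so that both relations rest on those libraries. Within libraries 56 to 62 they were -0.61 and -0.67, and within the other 17 they were -0.51 and -0.47. The part of tissue composition in the group comparisons was not tested beyond the alternatives given.

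**Figure D5:**
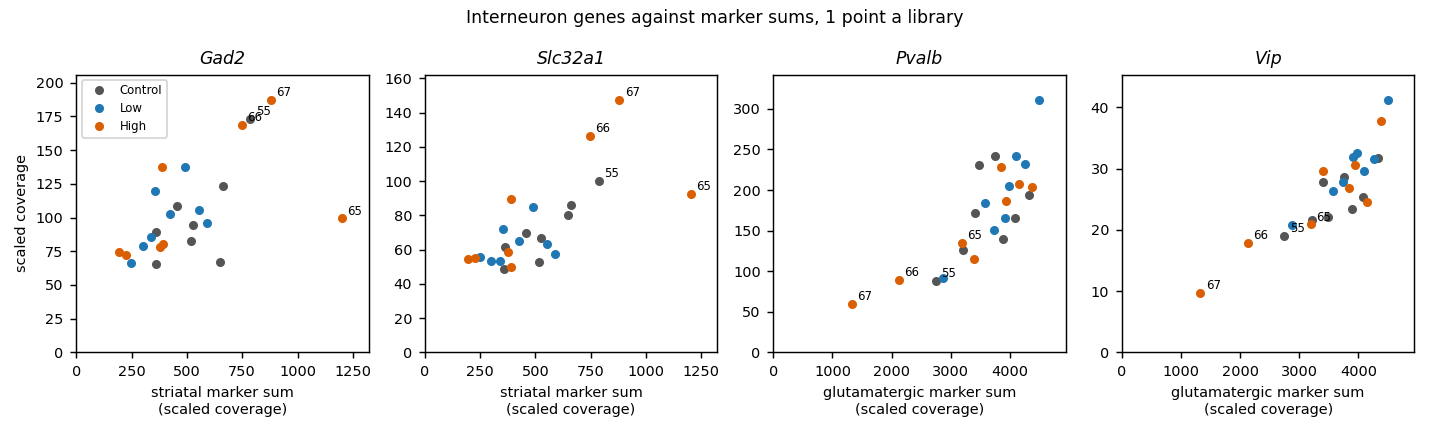
Scaled coverage (vertical axis) of Gad2 and Slc32a1 against the summed level of 8 striatal markers, and of Pvalb and Vip against the summed level of 9 glutamatergic markers, 1 point a library, coloured by group, with Control 55 and High 65, 66 and 67 numbered. Slc32a1 is highest in the numbered libraries, and Gad2 in all of these but High 65 (99.5). Elsewhere the relation is looser, with Gad2 at 67.0 in Control 49 (striatal sum 648) and 137 in High 70 (389). Pvalb and Vip fall to 60.2 and 9.74 in High 67, where the glutamatergic sum is lowest (1329).

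For 9 of the 10 interneuron genes, all but Pvalb, the gene whose deviations were most like its own was sought among 13165 tested genes with a symbol. These are descriptions over 24 libraries that share scaling and tissue. Among the GABA genes, Gad1 was most like Ppp1cc (r = 0.88), Gad2 most like Zim1 (r = 0.97) and Slc32a1 most like Ache, the acetylcholinesterase gene (r = 0.95). Vip was most like Adra1d, an adrenergic receptor (r = 0.94), and Cck most like Kcnmb4, a potassium channel subunit (r = 0.96). Sst was most like Psmb2, a proteasome subunit (r = 0.86), and Npy most like Ubl5 (r = 0.86). Lhx6 was most like Kif17, a kinesin (r = 0.89), and Reln most like Dclk1, a kinase of the doublecortin family (r = 0.97).

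Further genes of GABA signalling and of interneurons were counted in 6 lists. In Low against Control and in High against Control 0 genes of the 6 lists passed, beside 6.11% and 0% of all tested genes. In Low against High 6 genes passed, all higher in Low. Beside them, 11.7% of all tested genes passed in either direction, and 5.3% passed and were higher in Low. Of the 12 tested receptors for these peptides and reelin, 3 passed, and their median log2 fold change was 0.29, beside 0.09 over all tested genes. Of the 6 inhibitory synapse genes 1 passed, of the 25 tested interneuron subtype genes 1 and of the 8 perineuronal net genes 1. None of the 6 GABA transport and breakdown genes and none of the 14 tested interneuron transcription factors passed.

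Cckbr, the main cholecystokinin receptor of the brain, ran from 23.1 to 31.6 in Low (median 25.6) and from 12.3 to 23.3 in High (median 18.8). In 7 of the 8 Low libraries it lay above every High library, and the log2 fold change was 0.50 ± 0.11 (SE, limma adjusted p = 0.00273). Hapln1, a link protein of perineuronal nets, ran from 21.3 to 25.2 in Low (median 23.0) and from 17.3 to 21.3 in High (median 18.6), with 8 of 8 Low libraries above every High library and a log2 fold change of 0.28 ± 0.07 (limma adjusted p = 0.0133). These 2 genes passed without each of the 24 libraries in turn.

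The other 4 were lost without 1 library or another. Npy1r and Npy5r, neuropeptide Y receptors, were higher in Low by 0.42 ± 0.14 and 0.35 ± 0.10 (log2, SE) and passed in 9 and 22 of the 24 repeats without 1 library. Cnr1, the cannabinoid receptor of Cck interneurons (0.38 ± 0.13), passed in 9, and Slc12a2, a chloride importer (0.34 ± 0.11), in 12. The calls over all tested genes also moved with the alternatives. With libraries 56 to 62 as a covariate the log2 fold changes were 0.27 to 0.49, beside 0.28 to 0.50 without it. With larger standard errors 0 of the 6 passed, beside 2.26% of all tested genes. With the summed striatal markers as a covariate 5 of the 6 passed, all but Cnr1, beside 1964 of 15644 tested genes. Without the 4 libraries above 700 in striatal markers 0 of 6 passed, beside 867 of 15582 tested genes, with log2 fold changes of 0.20 to 0.42. With median-of-ratios scaling 2 of the 6 passed, Cckbr and Hapln1, beside 1656 of 15632 tested genes.

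In the lists with 0 called genes, the largest absolute log2 fold changes in Low against High were those of Slc6a13, a GABA transporter (-0.31 ± 0.27, SE), and Slc38a1, a glutamine transporter (0.18 ± 0.23). Among the transcription factors they were those of Dlx6 (-0.44 ± 0.31) and Nkx2-1 (-0.43 ± 0.32). Most of that list went the other way, with 11 of the 14 tested higher in Low and 3 lower. Its median log2 fold change was 0.14, beside 0.09 over all tested genes, and its smallest limma adjusted p was 0.0906. All 4 named genes differed by less than the spread between libraries (smallest limma adjusted p of the 4 = 0.351).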

How the data were processed

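Frontal cortex mRNA of 24 rats was sequenced from stranded libraries. The submitters' processing notes name FastQC, Trimmomatic, TopHat2 and StringTie, with no versions, and the build mRatBN7.2. The tables list gene ends past the end of chromosome 1 in that build, so gene positions are given as the tables have them and were not joined to GRCr8, the build of the RefSeq sequences. The authors deposited 1 StringTie table per library, with coverage (a signal: how many reads lie over a base on average, with no correction for sequencing depth), FPKM and TPM per gene. In units of 1000000, the deposited TPM values add up to 1 in each Low table but to 1.70 to 1.98 in the others, where they were treated as a score. Depth in reads was not given in the tables, and reference coverage summed to 1.64 to 3.07 times 1000000 per library.

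Groups came from the sample labels. Coverage was summed per reference gene, divided by the library's sum and multiplied by 1000000, and genes with a mean of at least 1 were tested on log2(value + 1) with limma 3.58.1 (trend, robust) in R 4.3.3. Permutation tests used numpy 2.4.6 and scipy 1.17.1 in Python 3.11.15. Limma and the permutation tests of ratios and pairs were tested on simulated data. The smallest p that 100000 permutations can give is 1e-05. The 10 genes, the gene lists and the tests were chosen with earlier results of these data known. Named beyond the 10 genes are list genes past the threshold (otherwise at most the 2 with the largest change per list) and the gene most like each of the 10. Of these, 1 list gene, left out of the list counts too, and 1 likeness are not reported here. Vipr1, Cort, Ndnf and Pthlh were not found by name, and Sstr5, Cckar, Sox6 and Chodl were too low to test. Alternatives fixed at the start were a pseudocount of 0.1, a minimum mean of 5 or none, 3 other scalings, FPKM and TPM, only the compared groups, rank-sum tests, each library left out, ratios of FPKM, medians and Spearman's rho. The covariates (libraries 56 to 62, striatal markers), the left-out sets of libraries, FPKM divided by its sum, and Npy summed with its copy were chosen after seeing the data.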

Additional observations from a re-analysis of the deposited data

Results flagged for a closer look

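Npy in High 65 was 67.3, apart from the other 7 High libraries at 47.7 to 56.5, by a gap test within the group. Of 30 such sets (10 genes in 3 groups) this was the only one flagged, where chance flags about 1 in 20, or 1.5 of 30. High 65 also had the highest striatal marker sum (1202), and its part in the Npy level was not tested.

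Low and High differed in 6 list genes, each higher in Low by the limma test of that difference, beside 11.7% of all tested genes called. They were 3 of 12 peptide and reelin receptors, 1 of 6 inhibitory synapse genes, 1 of 25 subtype genes and 1 of 8 perineuronal net genes. None of 6 GABA transport and breakdown genes and none of 14 transcription factors passed. The Low exposure cannot be told apart from the way the Low tables were made. The log2 differences were 0.34 for Slc12a2 (adjusted p = 0.0429), 0.42 for Npy1r (0.0454), 0.35 for Npy5r (0.0219), 0.50 for Cckbr (0.00273), 0.38 for Cnr1 (0.0491) and 0.28 for Hapln1 (0.0133). Of the 8 Low libraries, 6 belong to the set 56 to 62. With that set as a covariate none of the 6 genes passed, beside 2.26% of all tested genes. Their log2 differences were then 0.27 to 0.49, with larger standard errors.

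Outside the values used above, the loci assembled from the reads in the Control and High tables covered the 10 genes too. Lhx6 had such a locus on its own strand in only 13 of the 16 tables. The locus over Lhx6 in Control 49 had a coverage of 124, or 25.2 times the 4.91 of Lhx6 itself as deposited, and spans 69162 bases. It reaches beyond Lhx6. Over Reln, whose gene spans 426143 bases, Control 49 had 10 such loci on the gene's strand, the longest of 98968 bases. High 66 and High 67 had 4 each, and the other Control and High libraries had 1 each. The part of this in the Reln levels was not tested. For Gad2 and Sst the assembled locus equalled the gene's coverage, within 0.5%, in 16 of 16 Control and High tables, for Pvalb in 13 and for Gad1 and Lhx6 in 0.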

How the results depend on the processing

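The count of called interneuron genes stayed at 0 in all 3 comparisons under most alternatives, also without each library in turn (0 to 0). The deposited FPKM column called 8 of 10 in Low against Control and 7 in Low against High, beside 89.7% and 89.8% of all tested genes, and TPM called 1, Gad1, in Low against Control, beside 25.4%. Without Control 49 and Low 57, 1 was called in Low against High. Of 300 log2 fold changes of the 10 genes under the alternatives fixed at the start, 264 kept direction and call and 15 kept direction and became called. The other 21 turned sign, called or not, and the cause was not tested. With FPKM 15 values were called, 14 of them with the direction kept. FPKM turned Slc32a1 (0.34), Npy (0.47) and Lhx6 (0.32) in Low against Control and Gad2 (0.34), Slc32a1 (0.14) and Lhx6 (0.14) in Low against High. TPM turned Npy (0.074) and Lhx6 (0.056) in Low against Control. Without scaling, Gad2 (-0.022) and Sst (-0.019) in Low against Control, Vip (0.093), Npy (0.019) and Cck (0.12) in High against Control, and Gad1 (-0.14), Sst (-0.21) and Npy (-0.076) in Low against High turned. Median-of-ratios scaling turned Gad2 (-0.047) and Sst (-0.043) in Low against Control and Gad1 (-0.023) and Sst (-0.087) in Low against High, and scaling without mitochondrial genes turned Npy (0.0028) in Low against Control. For the within-library ratios, the test of medians called 0 of 15 (differences -0.28 for Slc32a1/Gad1 in Low against High and -0.19 for Npy/Sst in High against Control, adjusted exact permutation p = 0.0513 for both; 2 with means). With medians Cck/Vip turned in Low against Control (-0.060), High against Control (-0.049) and Low against High (-0.011). With FPKM Gad1/Gad2 (0.20) and Slc32a1/Gad1 (-0.16) turned in High against Control, as did Cck/Vip in Low against Control (-0.013) and Low against High (-0.070), and Slc32a1/Gad1 became called in Low against Control (-0.66). No paired analysis was possible because the groups share no library numbers. With no read counts, counting error is unknown, and it weighs most for low genes such as Lhx6.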
